A study of Mus musculus with 41 samples.

Results

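The cytosolic ribosomal protein genes are the rows of the deposited table whose symbols read Rpl, Rplp or Rps followed by a number and, at most, a paralog suffix. The symbol rule found 84 genes among 24946, namely 52 of the large subunit (Rpl and Rplp) and 32 of the small subunit (Rps). GENCODE annotates 2 of them, Rps4l and Rpl32l, as processed pseudogenes. The study measured poly(A) RNA of 3 brain regions, cortex, midbrain and cerebellum, taken at 12 weeks of age from C57BL/6J mice of both labelled sexes. The floxed groups, labelled Yy1-floxed, numbered 6 cortex, 7 midbrain and 7 cerebellum libraries. The cKO groups, labelled astrocytic Yy1-cKO, numbered 5 cortex, 7 midbrain and 7 cerebellum libraries; they share the floxed allele with the controls and derive from crosses with GFAP-cre mice, in which the Gfap promoter, active chiefly in astrocytes, drives Cre. A group with GFAP-cre and no floxed allele was not analysed here. RNA was taken from the entire region of each animal, so the values come from all its cells. In such samples, fewer cells of a type and less RNA per cell cannot be told apart.

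Ribosomes translate mRNA in the cytosol, and each is built from a small subunit, which decodes, and a large subunit, which forms the peptide bond. Ribosomal protein mRNAs usually begin with a short pyrimidine tract (the TOP motif), through which LARP1 and mTOR signalling set their translation. Most ribosomal protein genes have 1 expressed copy and many retroposed pseudogenes, and a few have paralogs expressed in particular tissues, such as Rpl3l in muscle and Rpl10l in male germ cells. YY1, a zinc finger factor, binds the promoters of the mouse Rpl30 and Rpl32 genes, where it was once named the delta factor. Unassembled ribosomal proteins can bind MDM2, which stabilises p53, and Rps27l is itself a transcriptional target of p53.

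Rps27 and its relatives are shown first, because reads of 2 of them cannot be told apart. Rps27 lies at chr3:90212522-90213651 (GRCm38, minus strand), and Rps27rt, an intronless retroposed copy, lies at chr9:114982366-114982739 (minus strand). Their GENCODE transcripts of 345 and 374 bases share an exact stretch of 341 bases, and their coding sequences of 255 bases have 0 mismatches. Rps27l at chr9:66946086-66949516 (plus strand) has a coding sequence of the same length that matches Rps27 at 194 positions (76.1%) and shares with its transcript no exact stretch longer than 11 bases. Capitals mark the 61 positions at which Rps27l differs from Rps27.
Rps27: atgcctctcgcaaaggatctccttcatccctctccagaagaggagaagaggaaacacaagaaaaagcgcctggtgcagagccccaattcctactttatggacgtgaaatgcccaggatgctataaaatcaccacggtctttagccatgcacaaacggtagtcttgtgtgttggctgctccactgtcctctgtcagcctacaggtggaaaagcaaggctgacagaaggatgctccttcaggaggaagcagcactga
Rps27l: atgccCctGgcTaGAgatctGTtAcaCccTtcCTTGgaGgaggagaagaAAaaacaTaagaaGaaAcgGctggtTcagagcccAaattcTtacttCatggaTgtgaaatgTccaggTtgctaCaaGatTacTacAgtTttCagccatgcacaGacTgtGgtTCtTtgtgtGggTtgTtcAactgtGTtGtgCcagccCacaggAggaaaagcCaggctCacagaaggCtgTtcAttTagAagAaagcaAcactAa
Paired reads of 50 bases, as in these libraries, fall within the shared stretch for Rps27 and Rps27rt and can be separated for Rps27l.

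RefSeq promoter windows (GRCm38.p6, 250 bases before to 50 after the annotated start) were at hand for 63 of the 84 members. The YY1 core, searched as ATGGCGG on both strands, stood in the windows of 11 members (17.5%) against 4.69% of 27025 genes. The ETS core, searched as CCGGAAG on both strands, stood in 25 members (39.7%) against 9.93% of genes. A TOP start, searched as CTTTC or CTTTT on the gene's strand from 10 bases before to 20 after the start, stood in 18 members (28.6%) against 7.77% of genes. No searched motif contains another. A match is a string and not a measured binding site. The stretch from 150 bases before to 30 after the start is printed for members called in the comparisons that follow, with matched motifs in capitals. Rps27l has RefSeq starts at 2 places: the upstream stretch (chr9:66945936-66946115, plus strand) holds an ETS core, and the downstream stretch (chr9:66946263-66946442, plus strand) holds a YY1 core. Rpl34 also has starts at 2 places. Its downstream stretch (chr3:130730308-130730487, minus strand), which is the one printed, holds all 3 motifs. Its upstream stretch (chr3:130730369-130730548, minus strand) holds the YY1 core alone. Rpl7a (chr2:26910657-26910836, plus strand) holds a repeated TOP string. The stretches of Rplp0 (chr5:115559317-115559496, plus strand) and Rps4x (chrX:102189362-102189541, minus strand) hold none of them.
Rps27l, upstream start: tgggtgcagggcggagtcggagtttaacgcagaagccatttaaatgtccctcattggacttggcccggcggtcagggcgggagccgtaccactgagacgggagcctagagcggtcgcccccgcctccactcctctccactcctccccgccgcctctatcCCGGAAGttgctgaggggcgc
Rps27l, downstream start: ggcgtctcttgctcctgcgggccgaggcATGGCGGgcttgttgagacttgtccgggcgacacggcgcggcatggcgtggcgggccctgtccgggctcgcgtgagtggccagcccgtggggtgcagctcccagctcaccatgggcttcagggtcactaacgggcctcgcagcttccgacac
Rpl34: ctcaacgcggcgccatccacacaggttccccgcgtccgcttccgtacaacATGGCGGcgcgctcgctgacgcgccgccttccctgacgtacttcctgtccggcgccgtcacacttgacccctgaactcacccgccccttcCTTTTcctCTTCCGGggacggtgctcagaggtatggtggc
Rpl7a: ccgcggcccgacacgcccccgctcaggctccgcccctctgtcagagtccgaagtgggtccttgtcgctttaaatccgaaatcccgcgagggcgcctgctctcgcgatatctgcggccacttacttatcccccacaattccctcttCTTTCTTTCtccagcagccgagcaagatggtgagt
Rplp0: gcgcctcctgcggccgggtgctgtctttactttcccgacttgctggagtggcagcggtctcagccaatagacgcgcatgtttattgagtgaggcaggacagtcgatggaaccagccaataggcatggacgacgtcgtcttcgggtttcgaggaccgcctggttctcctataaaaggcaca
Rps4x: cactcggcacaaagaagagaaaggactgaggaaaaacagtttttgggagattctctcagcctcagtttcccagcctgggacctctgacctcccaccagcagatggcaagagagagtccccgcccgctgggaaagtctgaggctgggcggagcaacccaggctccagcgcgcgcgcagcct

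The libraries differed in ways that touch these genes. Estimated reads ran from 6.81 M (cKO cerebellum 7) to 69.8 M (floxed cerebellum 6), and the mean log2 reads of cKO minus floxed libraries were -0.359 in cortex, -0.421 in midbrain and -0.768 in cerebellum (exact two-sided permutation p = 0.355, 0.0455 and 0.0577). In 7 libraries the 403 expressed genes whose longest transcript is under 1000 bases, members left out, lay 0.25 or more (log2, median) above the floxed median of their region. They are floxed cortex 5, cKO cortex 4, 5 and 6, cKO midbrain 4, and cKO cerebellum 4 and 7, and they are called the high short-transcript libraries here. This choice was made after the data were seen, by a measure that moved with the members. A lower members' median without these libraries thus follows in part from the choice and is no independent check. Yy1 fell in cKO in cortex (log2 fold -0.26 ± 0.07 SE, limma adjusted p = 0.0166), midbrain (-0.24 ± 0.06, 0.018) and cerebellum (-0.86 ± 0.15, 0.00114). The call was lost in 5 of 29 alternatives in cortex and 4 of 32 in midbrain. The library labelled floxed cerebellum 6 went against its label: its Yy1 value was 585.4, within the cKO range of 498.8 to 682.6 and below the other floxed values of 881.2 to 1348.3. Its summed microglia markers were 12475.4, against at most 3751.2 in the other floxed cerebellum libraries and at least 10206.5 in the cKO ones. In 8 of 39 libraries Xist and Y-linked transcripts also went against the labelled sex. They are floxed cortex, midbrain and cerebellum 5 and 6, and cKO midbrain and cerebellum 7. By these transcripts no floxed cortex library was female, while cKO cortex 5 and 6 were, so sex partly went with genotype there. With Xist in place of labelled sex, Yy1, Rpl26, Rpl7, Rpl18 and Rps4x were not called in cortex, and Rps27, Rps27l and Rplp0 were. Each of the 8 astrocyte and 8 microglia markers was above 0 in at least 1 library of every region. Astrocyte markers had sums of 108146 to 123314 in cKO cortex against 132693 to 213989 in floxed cortex. Microglia markers summed to 10863.3 to 25388.6 in cKO and 8898.4 to 13432.9 in floxed cortex. In cerebellum, median marker sums of floxed and cKO libraries were 155100 and 111946 for astrocytes, 140564 and 78421.7 for Purkinje cells, 3559 and 14542 for microglia, and 143.7 and 580.0 for leukocytes. Choroid plexus markers had medians of 37699.7 in floxed and 32493.8 in cKO cerebellum, and reached 67476 and 280370 there. The part of these cell types in the results was not tested.

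The members spanned a wide range of levels in floxed tissue. Per kilobase of exon, the highest was Rplp1, a stalk protein that recruits translation factors, at 23614.9 normalised reads per kb in cortex, 21431.0 in midbrain and 15391.4 in cerebellum. Rps15, a small-subunit protein, followed at 15664.2, 14689.3 and 10808.4, and Rpl36, of the large subunit, at 8571.4, 9168 and 9145. The rank of Rpl36 moved from 3 to 10 when the longest transcript replaced the union of exons. At the other end, Rpl10l, the germ-cell paralog of Rpl10, was listed at 0 in all 39 libraries. Rpl39l, the testis paralog of Rpl39, was listed at 0 in 11 libraries and lay at 1.15 per kb in floxed cortex, 1.59 in midbrain and 0.58 in cerebellum. Rpl3l, the muscle paralog of Rpl3, lay at 6.68, 6.28 and 5.02 per kb, and Rpl3 itself at 4965.2, 5265.1 and 3570.2. Of the paralogs, Rps27l (306.2, 371.2 and 448.7 per kb), Rpl22l1 (707.3, 732.4 and 610.8) and Rpl7l1 (316.8, 325.7 and 391.0) were expressed in all 3 regions.

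Together the members made up 1.36 to 3.29% of the normalised total of a library. Their share was 1.55 ± 0.15% (SD, n = 6) in floxed cortex and 1.81 ± 0.28% (n = 5) in cKO cortex. In cortex the 5 cKO shares were 1.54, 1.51, 2.15, 1.81 and 2.02%, and the floxed shares ran from 1.48 to 1.87% with a median of 1.48%. The highest floxed share and the 3 highest cKO shares all belonged to high short-transcript libraries, and the remaining floxed and cKO values overlapped. In midbrain the share was 1.66 ± 0.08% in floxed and 1.75 ± 0.18% in cKO (n = 7 each), and the highest value, 2.11%, was cKO midbrain 4. In cerebellum it was 1.63 ± 0.20% in floxed and 2.15 ± 0.75% in cKO (n = 7 each). cKO cerebellum 4 (3.29%) and 7 (3.18%) stood apart there, and the other 5 cKO libraries ran from 1.59 to 1.86%, against a floxed range of 1.36 to 1.90%. The library labelled floxed cerebellum 6 was the highest floxed one, and without it the floxed range ended at 1.77%, below cKO cerebellum 1 (1.86%).

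**Figure D1:**
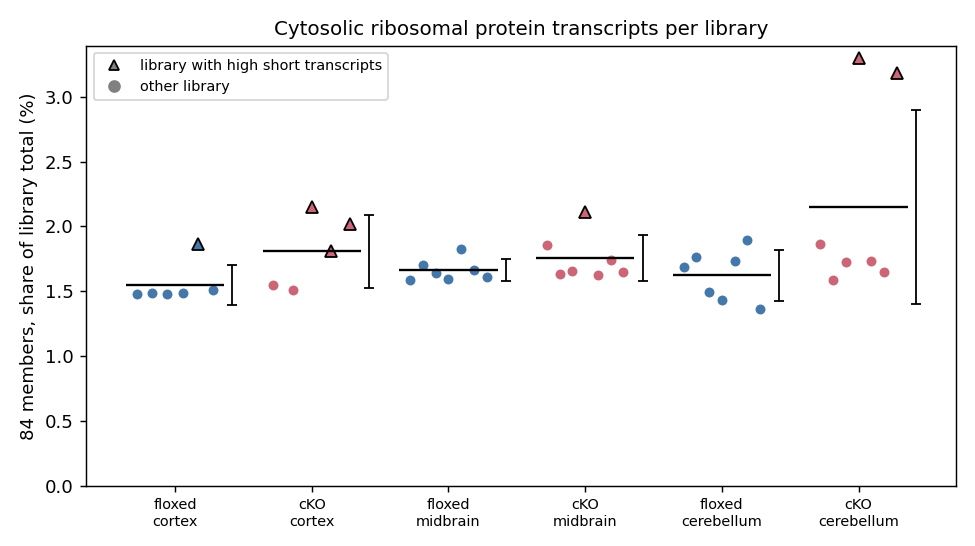
Share of each library's normalised total in the 84 cytosolic ribosomal protein genes (percent), by region and genotype. Points are libraries, triangles the 7 high short-transcript libraries, lines group means and error bars SD (n = 5 to 7); the 2 highest points are cKO cerebellum 4 (3.29%) and 7 (3.18%).

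The members moved with other short transcripts from library to library. In cKO cerebellum 4 and 7 the members' median stood 0.96 and 0.97 (log2) above the floxed median while the other short transcripts stood 0.59 and 0.77 above it. In cKO cortex 4 the pair of values was 0.52 and 0.52, and in floxed cortex 5, a floxed library, it was 0.35 and 0.35. Genes of the nuclear respiratory chain stood 0.51 and 0.87 above the floxed median in the same 2 cerebellum libraries, and mitochondrial ribosomal protein genes 0.27 and 0.51. In the other cKO cerebellum libraries the respiratory chain ran from -0.29 to 0.03 and the mitochondrial ribosomal protein genes from -0.05 to 0.16. These are values of the same libraries and share their depth and scaling, so they are given as a description. The part of transcript length or RNA quality in the members' level was not tested.

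**Figure D2:**
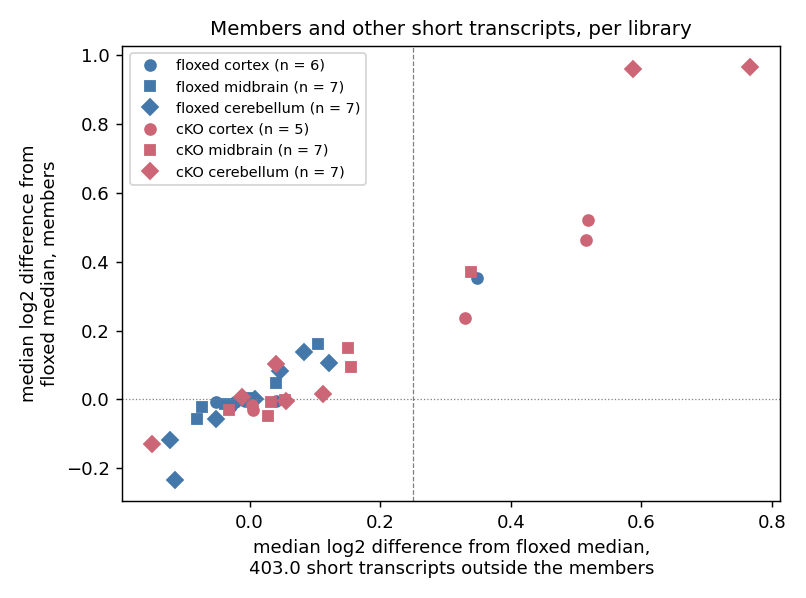
Median log2 difference from the floxed median of the region, per library, for the members (vertical axis) and for 403 other genes with transcripts under 1000 bases (horizontal axis). Each point is a library; those right of the dashed line at 0.25 are the 7 that stand apart, 6 of them cKO and 1 floxed.

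In cortex, 12 of 82 members tested were higher in cKO and none was lower, at an adjusted p under 0.05 over all genes. Of all 15731 genes 10.5% were called higher and 12.9% lower, and the members' share was 14.6%. The count is near the background and was not stable: it was 4 with the replicate block, 3 with Xist in place of labelled sex, 3 with all 6 groups in 1 fit, 0 by the Wilcoxon test and 5 to 17 when 1 library was left out, with under 8 without floxed cortex 1, 4 or 6 or cKO cortex 6. With library totals as the scaling, 2093 genes (13.3%) were called higher and 1441 (9.16%) lower, and 17 members higher, so the split of calls depends on the scaling. An unadjusted p under 0.05 was reached by 25 members. The share of all genes at that cut was not computed, so this count is not read as a result about the members. The members' median log2 fold was 0.17, against -0.01 over all genes, with 79 of 82 above 0. The 6 called members with the lowest p were Rps27, Rps27l, Rplp0, Rpl26, Rpl7 and Rpl18, and the others were Rpl10a, Rps4x, Rpl34, Rpl27, Rpl7a and Rps2 with log2 folds of 0.21 to 0.44. Without the high short-transcript libraries, which leaves 5 floxed and 2 cKO libraries, the members' median was -0.01, with 8 of 81 called higher and 4 lower (9.26% and 8.46% of all genes). The 8 included Rps27, Rps27l, Rplp0, Rpl26, Rpl7 and Rpl18. The 4 lower members, named here after their values were seen and not called when all libraries were used, were Rpl38 (-0.23 ± 0.05), Rps29 (-0.21 ± 0.05), Rpl22l1 (-0.22 ± 0.06) and Rps23 (-0.18 ± 0.05).

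In midbrain, Rps27l was the 1 member of 82 called higher and none was called lower, against 8.48% of 15683 genes called higher and 7.61% lower. An unadjusted p under 0.05 was reached by 9 members, again without a share of all genes to set beside it. The members' median log2 fold was 0.06 against -0.01 over all genes. Without cKO midbrain 4 the median was 0.01, Rps27l remained called and Rps21, a small-subunit protein named after its value was seen, was called lower (-0.21 ± 0.05, adjusted p = 0.0178). The backgrounds were then 7.66% higher and 6.69% lower.

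In cerebellum, 6 of 81 members were higher in cKO and none was lower, against 19.4% of 15334 genes called higher and 19.6% lower. The members' share of 7.41% was thus below the background, while their median log2 fold was 0.27, with 76 of 81 above 0, against -0.01 over all genes. An unadjusted p under 0.05 was reached by 17 members, also without a share of all genes to set beside it. With library totals as the scaling, 3748 genes (24.4%) were called higher and 2175 (14.2%) lower, and 16 members higher. The 6 were Rps27l, Rps4x, Rpl10, Rplp0, Rpl29 and Rpl7a. Without cKO cerebellum 4 and 7 the members' median was 0.00. Then 3 members were called higher, namely Rps4x (0.36 ± 0.09), Rps27l (0.45 ± 0.14) and Rpl10 (0.24 ± 0.08), against 18.6% of genes. Another 4, named after their values were seen, were called lower, namely Rpl22l1 (-0.39 ± 0.10), Rpl23a (-0.29 ± 0.08), Rps15a (-0.18 ± 0.05) and Rps27a (-0.33 ± 0.10), against 20.2% of genes. With the library labelled floxed cerebellum 6 left out as well, 9 members were called higher and 4 lower, against 22% and 24.2% of genes, and Rplp0 was again among the higher ones (0.27 ± 0.07, adjusted p = 0.00769).

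**Figure D3:**
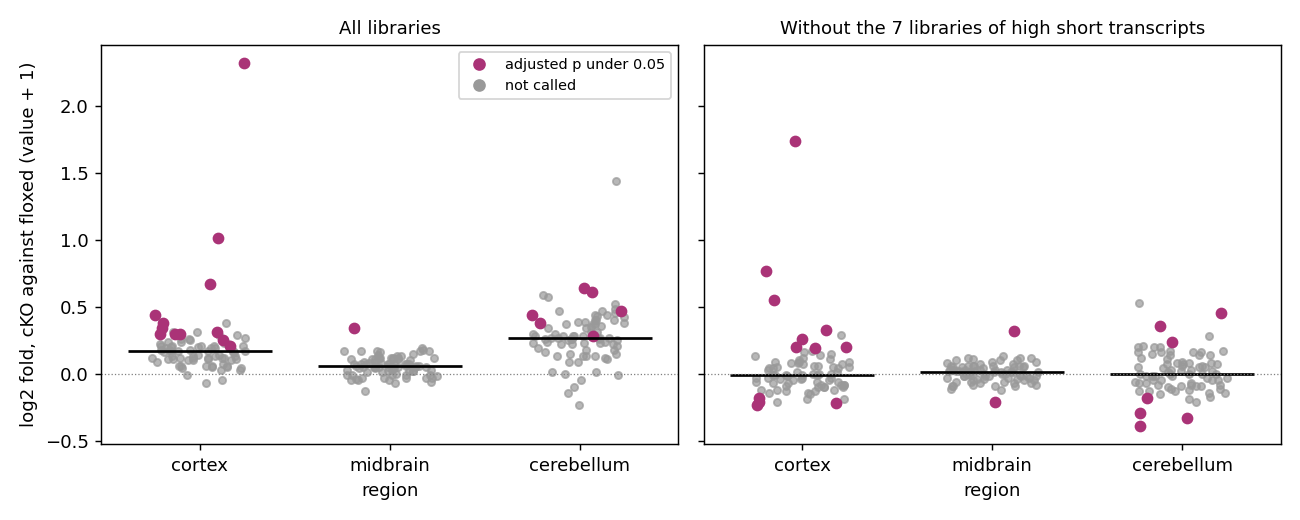
Log2 fold of each member, cKO against floxed, on the log2(value + 1) scale, by region, in all libraries (left) and without the 7 high short-transcript libraries (right). Points are genes, filled purple where the limma adjusted p was under 0.05, and lines are medians, which went from 0.17, 0.06 and 0.27 to -0.01, 0.01 and 0.00. The 7 libraries were chosen after the data were seen, by a measure that moved with the members.

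Rps27l, the p53-inducible paralog of Rps27, was the only member called higher in all 3 regions in the fits of all libraries. In cortex its values were 450.2, 385.4, 442.5, 304.4 and 412.9 in the 5 cKO libraries, and 225.2 to 269.1 with a median of 257.5 in the floxed ones. Every cKO cortex value lay above every floxed value, and the log2 fold was 0.67 ± 0.11 (adjusted p = 0.00196). In midbrain the floxed values ran from 279.6 to 355.3 (median 294.2) and the cKO values from 340.0 to 424.7 (median 394.0). The groups overlapped through floxed midbrain 6 alone, and the log2 fold was 0.34 ± 0.07 (adjusted p = 0.00482). In cerebellum the floxed values ran from 279.5 to 543.0 (median 351.7) and the cKO values from 436.3 to 834.8 (median 492.8). The highest floxed value was that of the library labelled floxed cerebellum 6, and the others, at most 379.8, lay below every cKO value. That library also carried the high microglia marker sum given above, and the part of microglia in Rps27l was not tested. The log2 fold was 0.64 ± 0.17 (adjusted p = 0.00989), and 0.75 ± 0.15 without that library (adjusted p = 0.00178). Without the high short-transcript libraries its log2 fold was 0.77 ± 0.12 in cortex, 0.32 ± 0.07 in midbrain and 0.45 ± 0.14 in cerebellum, all called.

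Other genes from the list on ribosome quality and nucleolar stress, some of them of the p53 response, were called beside Rps27l. A link between them and Rps27l was not tested. Trp53, which encodes p53, rose in cortex (0.41 ± 0.07, limma adjusted p = 0.0023), midbrain (0.22 ± 0.05, 0.0104) and cerebellum (0.65 ± 0.13, 0.00176). Cdkn1a, the p21 cell-cycle inhibitor induced by p53, rose in cortex (0.76 ± 0.15, 0.00466), midbrain (0.59 ± 0.14, 0.00948) and cerebellum (1.23 ± 0.30, 0.00668). Mdm2, the ubiquitin ligase of p53, rose in cerebellum (0.33 ± 0.07, 0.00235). Map3k20, a kinase that senses stalled ribosomes, also rose there (0.75 ± 0.16, 0.00354). Without the high short-transcript libraries neither was called in cortex or midbrain, where Mdm2 stood at 0.08 ± 0.06 and -0.07 ± 0.04. With all libraries, Ltn1 fell in cortex (-0.25, limma adjusted p = 0.0303) and Eif2ak4 in midbrain (-0.21, 0.0312). These 2 calls were lost in 16 of 29 and 14 of 32 alternatives. Of the 13 genes tested of that list, 2 rose and 1 fell in cortex, 2 rose and 2 fell in midbrain, and 5 rose in cerebellum. Over all genes 10.5, 8.48 and 19.4% were called higher and 12.9, 7.61 and 19.6% lower in these regions (the background also for the lists given later). Without the high short-transcript libraries 2 rose and 2 fell in cortex, 2 rose and 1 fell in midbrain, and 4 rose and 1 fell in cerebellum.

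Rplp0, the protein at the base of the stalk that holds Rplp1 and Rplp2, was higher in cortex and cerebellum. In cortex the 5 cKO values were 7830.1, 7857.1, 9128.8, 7703.4 and 8474.6, and the floxed values ran from 6175.1 to 7320.2 with a median of 6305.7. The groups did not overlap, and the log2 fold was 0.34 ± 0.06 (adjusted p = 0.00417), and 0.33 ± 0.05 without the high short-transcript libraries. In cerebellum the floxed values ran from 6080.6 to 8713.5 (median 6578.8) and the cKO values from 7670.8 to 12493 (median 8141.0). The groups overlapped, and the log2 fold of 0.38 ± 0.13 (adjusted p = 0.0355) was not called without cKO cerebellum 4 and 7 when floxed cerebellum 6 stayed in. In midbrain the log2 fold was 0.13 ± 0.06 (adjusted p = 0.115). Its stalk partners were not called in any region: Rplp1 had log2 folds of 0.16 ± 0.14, 0.11 ± 0.08 and 0.40 ± 0.25 and Rplp2 of 0.18 ± 0.11, 0.13 ± 0.07 and 0.52 ± 0.23 in cortex, midbrain and cerebellum.

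Rps4x, an X-linked protein of the small subunit, and Rpl10, an X-linked protein that joins the large subunit late in its maturation, were higher in cerebellum. Rps4x values ran from 3585.5 to 5122.3 (median 3990.0) in floxed and from 4558.4 to 9739.9 (median 5438.6) in cKO cerebellum. The highest floxed value again belonged to the library labelled floxed cerebellum 6, and every cKO value lay above the other 6. The log2 fold was 0.61 ± 0.17 (adjusted p = 0.0121), and 0.42 ± 0.08 without that library and the high short-transcript ones (adjusted p = 6.79e-04). In cortex Rps4x was called at 0.30 ± 0.09 (adjusted p = 0.03), and this call was lost without the high short-transcript libraries; in midbrain its log2 fold was 0.11 (adjusted p = 0.265). Rpl10 had a log2 fold of 0.47 ± 0.16 in cerebellum (adjusted p = 0.0297), with floxed values of 3467.3 to 4374.9 and cKO values of 4171.8 to 9192.7, and the groups overlapped.

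**Figure D4:**
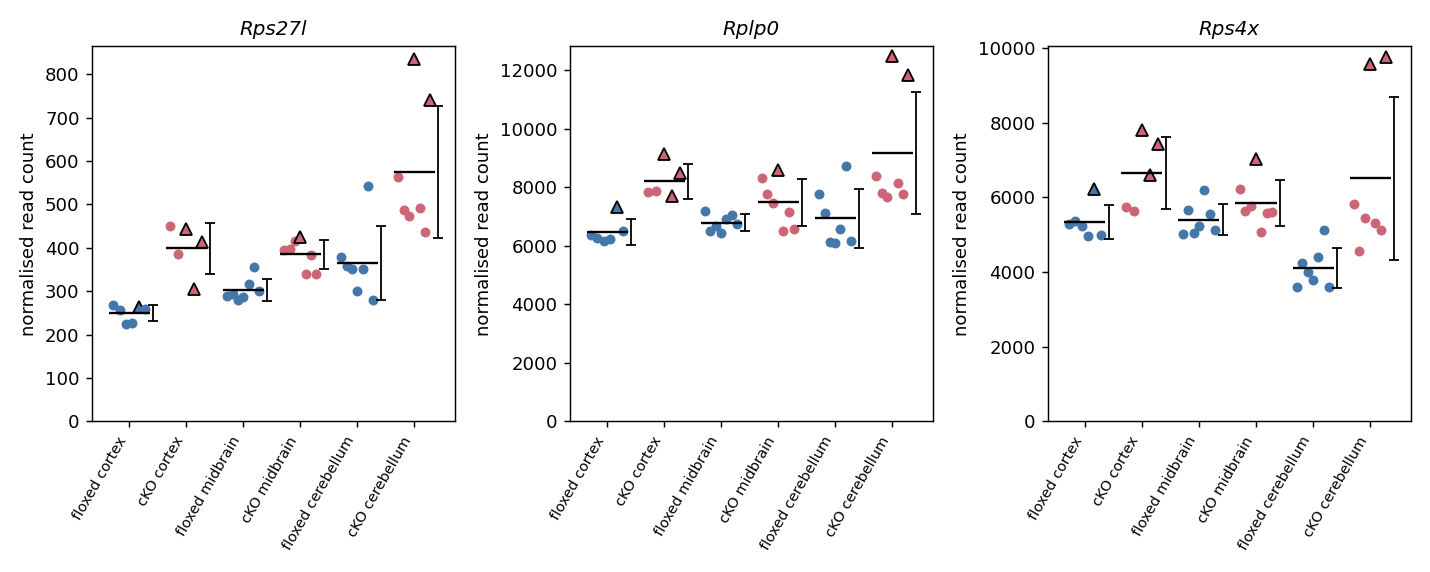
Normalised read counts of Rps27l, Rplp0 and Rps4x in every library, by region and genotype. Points are libraries, triangles the 7 high short-transcript libraries, lines means and error bars SD (n = 5 to 7); all cKO cortex values of Rps27l (304.4 to 450.2) and Rplp0 (7703.4 to 9128.8) lie above all floxed ones.

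Rps27 had the largest log2 fold of the members in cortex, 2.32 ± 0.28 (adjusted p = 7.47e-04), but the value turns on how reads were divided between Rps27 and Rps27rt. The 5 cKO cortex values of Rps27 were 337.8, 470.4, 808.7, 1589.4 and 1851.7, and the floxed values ran from 84.6 to 423.0 with a median of 137.0. Rps27rt held most of the reads in these libraries, with 1954.7 to 3454.6 in cKO and 2494.1 to 4055.9 in floxed cortex. In cKO cerebellum 7 the split was the reverse, with 6604.1 for Rps27 and 0 for Rps27rt. Summed over both copies, the log2 fold was 0.04 ± 0.13 in cortex (adjusted p = 0.839), -0.03 ± 0.07 in midbrain (0.811) and 0.12 ± 0.27 in cerebellum (0.741). The summed values ran from 2662.1 to 4572.4 in cKO and 2917.1 to 4215.0 in floxed cortex, and the groups overlapped. Rps27 is therefore given as uncertain. Rpl26 and Rpl34, which have many retroposed copies, may carry a like doubt, but their copies were not compared or summed. Rpl26 was listed at only 123.99 to 359.4 in floxed cortex and 430.3 to 669.1 in cKO cortex, where its log2 fold was 1.01 ± 0.24 (adjusted p = 0.0128); in midbrain and cerebellum it was not called.

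**Figure D5:**
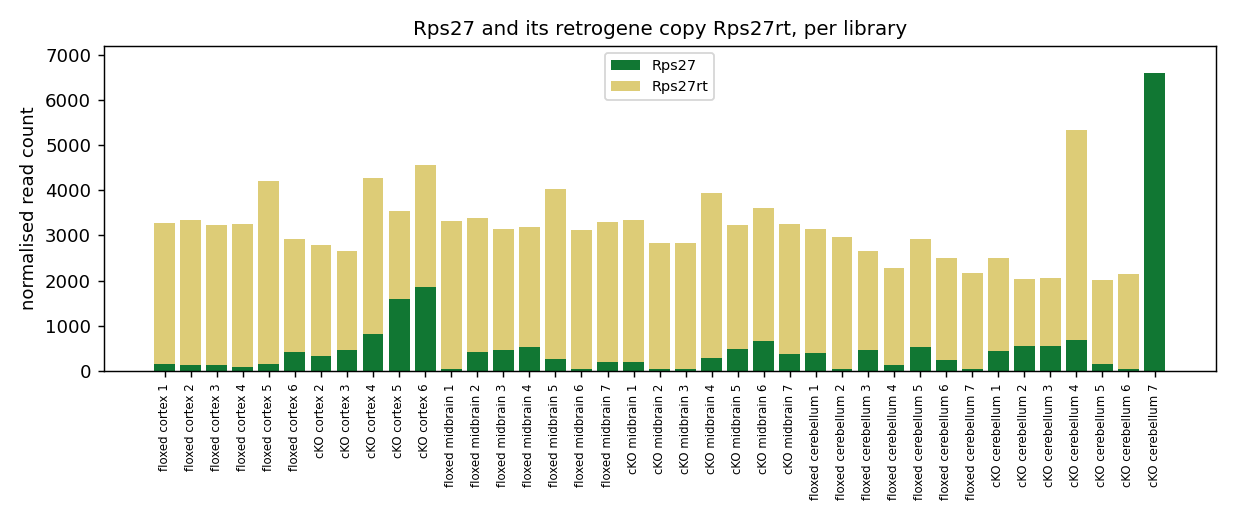
Normalised read counts of Rps27 (green) and of its retroposed copy Rps27rt (yellow), stacked, in each of the 39 libraries. Rps27rt takes most of the sum in 38 libraries, and cKO cerebellum 7 has all 6604.1 under Rps27.

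Most paralogs were not called. Rpl22, which in mice represses the expression of its paralog Rpl22l1, had log2 folds of 0.12 ± 0.08, 0.03 ± 0.05 and 0.12 ± 0.14 in cortex, midbrain and cerebellum, none of them called. Rpl22l1 had -0.05 ± 0.09, -0.07 ± 0.06 and -0.23 ± 0.13, also not called, and was called lower in cortex and cerebellum without the high short-transcript libraries (-0.22 ± 0.06 and -0.39 ± 0.10). In cerebellum its values ran from 945.0 to 1464.8 (median 1201.1) in floxed and from 833.1 to 1413.0 (median 937.5) in cKO libraries, and the 2 highest cKO values, 1413.0 and 1267.6, were those of cKO cerebellum 7 and 4. Rpl7l1, Rpl39 and Rps4l were not called in any region, and Rpl3l was tested in cortex and midbrain only, where it was not called.

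The genotype effect was then compared between regions in a fit of all 6 groups. For midbrain against cortex, no member was called, and 1 of 16659 genes was (0.006%). For cerebellum against cortex no member was called, against 6.4% of genes called higher and 8.09% lower; 1 member had an unadjusted p under 0.05 in each of these 2 contrasts. For cerebellum against midbrain, Rps4x was called, with an effect larger in cerebellum by 0.50 ± 0.17 (adjusted p = 0.0328), against 10.4% of genes called higher and 12% lower. With library totals as the scaling 2186 genes (13.1%) were called higher and 1458 (8.75%) lower, and 3 members higher. The call was lost when any 1 of 8 libraries was left out, namely floxed midbrain 2 or 5, cKO midbrain 5, floxed cerebellum 1, 4 or 7, and cKO cerebellum 4 or 7 (highest adjusted p 0.0653). Without all 7 high short-transcript libraries and floxed cerebellum 6, the difference was 0.35 ± 0.09 and called (adjusted p = 0.00255), with 14.2% of genes called higher and 15.8% lower. The differences of the Rps27l effect between regions were not called: -0.32 ± 0.19 for midbrain against cortex, -0.02 ± 0.19 for cerebellum against cortex and 0.30 ± 0.17 for cerebellum against midbrain (adjusted p = 0.998, 0.955 and 0.214).

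Between regions of floxed mice, the members as a whole lay near the shift of all genes. Against cortex, cerebellum had 4 members called higher and 41 lower of 82, with 25.2% of 16002 genes called higher and 44.1% lower. The members' median was -0.17 and that of all genes -0.14, and with library totals as the scaling all genes stood at 0.14 and the members at 0.11, with 24 members called higher and 9 lower (43.9% and 29.2% of all genes). Against midbrain, cerebellum had 4 members higher and 45 lower, with 26.6% of genes higher and 42.9% lower, and medians of -0.18 for the members and -0.11 for all genes; library totals gave 9 members higher and 16 lower (39.1% and 31.8% of all genes). Midbrain against cortex gave 2 members higher and 2 lower, with 12.8% of genes higher and 22.3% lower, and library totals gave 10 higher and 0 lower (20.6% and 12.6% of all genes).

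Several members differed by more than the shift of all genes. Rps2, a small-subunit protein near the mRNA entry site, ran from 4258.6 to 5950.5 (median 4782.7) in floxed cerebellum, 8391.8 to 9473.0 (median 8794.7) in midbrain and 9318.0 to 11533 (median 9673.6) in cortex. Cerebellum did not overlap the other regions, and the log2 difference was -1.02 ± 0.06 against cortex (limma adjusted p = 5.40e-12) and -0.84 ± 0.06 against midbrain (8.43e-11). Rpl3 and Rpl4, large-subunit proteins near the peptidyl transferase centre and the exit tunnel, were also lower in cerebellum than in cortex (-0.48 ± 0.05 and -0.37 ± 0.05), as was Rpl12 of the stalk base (-0.58 ± 0.08). With other scalings Rpl3 stood as near to 0 as -0.13, still called, and Rpl4 was not called, at -0.09 with library totals and -0.04 with quantile normalisation. Rpl10 was lower in cerebellum than in midbrain (-0.47, limma adjusted p = 8.60e-07), with its call lost in 0 of 30 alternatives. Rpl7l1 (0.30 ± 0.05), Rps27l (0.51 ± 0.11) and Rpl18 (0.41 ± 0.09) were higher in cerebellum than in cortex. Between midbrain and cortex, Rps4l (0.66 ± 0.17) and Rps6, the substrate of S6 kinase (0.18 ± 0.06), were higher in midbrain, and Rpl29 (-0.23 ± 0.07) and Rps2 (-0.18 ± 0.06) were lower. The calls of Rps4l and Rps6 were kept in 30 alternatives. Rps4l is annotated as a processed pseudogene, and its sequence was not compared with those of other members. Rpl29 was not called with library totals (-0.13), quantile normalisation (-0.09) or no sex covariate (-0.21), and Rps2 lost its call in 11 of 30, among them library totals (-0.08) and quantile normalisation (-0.05).

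Other genes of the translation pathway were read from lists in the same cKO against floxed fits. Among 17 TOP-containing translation factor genes, Pabpc1, the poly(A)-binding protein, was the 1 called in each region (0.21 ± 0.06, 0.17 ± 0.05 and 0.34 ± 0.10 in cortex, midbrain and cerebellum), with list medians of 0.08, 0.02 and 0.01. Of 36 ribosome biogenesis genes, 1 rose and 1 fell in cortex, 1 rose in midbrain, and 2 rose and 3 fell in cerebellum, with medians of -0.01, 0.00 and -0.01. Fbl, the methyltransferase of ribosomal RNA, rose in cortex (0.31 ± 0.08) and cerebellum (0.32 ± 0.08), and Wdr43, a small-subunit assembly factor, fell in both (-0.24 ± 0.07 and -0.26 ± 0.08). Without the high short-transcript libraries neither was called in cortex (Fbl 0.23, adjusted p = 0.105; Wdr43 -0.19, adjusted p = 0.124), and the list gave 0 up and 2 down in cortex and 1 up and 5 down in cerebellum. With library totals Wdr43 was not called in cerebellum (-0.18, adjusted p = 0.102). Nob1, of the same list, fell in cerebellum (-0.29, limma adjusted p = 0.00837), with its call lost in 0 of 33 alternatives. Bysl rose in midbrain (0.20, 0.0213), with its call lost in 5 of 32. Of 5 ribosomal protein genes outside the symbol rule that were tested, none was called in any region; Rack1 had 0.20 ± 0.07, 0.09 ± 0.05 and 0.24 ± 0.12.

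Of the 20 genes of mTOR and LARP1 control, 2 rose and 4 fell in cortex, 2 rose and 1 fell in midbrain, and 3 rose and 6 fell in cerebellum. Of all genes, 10.5, 8.48 and 19.4% were called higher and 12.9, 7.61 and 19.6% lower in these regions. Without the high short-transcript libraries 2 of the 20 rose and 3 fell in cortex, 2 rose and 2 fell in midbrain, and 4 rose and 5 fell in cerebellum. Eif4ebp1, the translation repressor that mTOR inactivates, rose in every region, by 1.02 ± 0.14, 0.99 ± 0.13 and 0.75 ± 0.18 (limma adjusted p = 9.16e-04, 1.77e-04 and 0.00545). Akt1s1, the PRAS40 subunit of mTORC1, rose in cortex (0.39 ± 0.08), midbrain (0.31 ± 0.06) and cerebellum (0.39 ± 0.13), where it was not called without the high short-transcript libraries (0.23 ± 0.09, adjusted p = 0.0645). Mycn, a transcription factor that drives ribosome biogenesis genes, fell in cerebellum (-1.40 ± 0.26, adjusted p = 0.00134), as did its partner Max (-0.42 ± 0.09). Max was also called lower in midbrain (-0.17, limma adjusted p = 0.0101). Tsc1 fell in cortex (-0.25, 0.0218), a call lost in 4 of 29 alternatives. Without the high short-transcript libraries Eif4ebp1 stood at 1.11 ± 0.13, 0.93 ± 0.13 and 0.67 ± 0.15 and Mycn in cerebellum at -1.16 ± 0.22. Mycn was then also called lower in cortex (-0.47 ± 0.14, 0.0466) and not called in midbrain (-0.27 ± 0.11, 0.13). Max was then called lower in cortex (-0.23 ± 0.06), midbrain (-0.16 ± 0.04) and cerebellum (-0.34 ± 0.08). Of 78 mitochondrial ribosomal protein genes, 18 rose in cortex, 18 rose in midbrain, and 16 rose and 1 fell in cerebellum, where the share is near the background of 19.4%; in cortex and midbrain 10.5 and 8.48% of all genes were called higher. Without those libraries 6 rose in cortex, 14 in midbrain, and 11 rose and 10 fell in cerebellum, against 9.26, 7.66 and 18.6% of all genes called higher.

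Members with and without a matched string had close medians, but the classes rest on strings, and an effect of a motif was not tested. A TOP start was matched in 18 of 63 members, though ribosomal protein mRNAs usually begin with one. The class without it can thus hold TOP genes that the string missed. Rpl30 and Rpl32, whose promoters YY1 binds, were not among the 11 members with a YY1 core, for want of a match or of a window. With a YY1 core, 11 members tested had median log2 folds of 0.14, 0.07 and 0.23 in cortex, midbrain and cerebellum, and those with a window but without the core had 0.17, 0.05 and 0.28. With a TOP start the medians were 0.18, 0.07 and 0.31, and without it 0.17, 0.05 and 0.27. The large-subunit members had medians of 0.18, 0.07 and 0.26 and the small-subunit members 0.17, 0.05 and 0.28.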

How the data were processed

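Poly(A) RNA of 39 libraries was analysed, and 2 libraries whose title code and tissue label disagree were left out of comparisons. The deposited values are read counts per gene already scaled between libraries by the authors (a signal, not whole counts): 87.4% of 75755 low values lay within 0.1 of whole steps, so no count test was used. STAR, Salmon, DESeq2 and mm10 are listed, with no role or version, in the submitters' processing notes; the scaling step and annotation are not given in the sources used here. The library kit does not mark strand, so overlapping and antisense genes cannot be separated. The 26 symbols turned into dates (at most 0.351% of a library) were dropped. Estimated reads (6.81 to 69.8 M) came from the spacing of low values, and their number limits the precision of low genes.

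Each region was fitted with limma 3.58.1 (R 4.3.3; trend and robust) on log2(value + 1), with labelled sex as covariate, over genes that reached 10 in a number of libraries no smaller than the smaller group. Folds understate the change of low genes. Genes were called at a Benjamini-Hochberg adjusted p under 0.05 over all genes tested; ± after a fold is its SE. The scripts were tested on simulated data. Named members were taken from the 6 called with the lowest p in each region and direction and the 4 in each difference between regions. Paralogs, stalk proteins, the 3 highest and 3 lowest per length, and the 3 genes of lowest p in each list were also eligible. Not every gene under this rule is printed. The members and lists were chosen with earlier results of these data known. Lengths came from GENCODE and promoters from RefSeq (GRCm38.p6). The 7 biological replicates per group stated for the design are taken as animals.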

Additional observations from a re-analysis of the deposited data

Results flagged for a closer look

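Of 36 combinations of a measure and a sample group tested for a library far from the others, 7 held one. Chance alone marks about 5%, but the measures come from the same libraries and several flags fall on floxed cortex 5. They are therefore not independent. Floxed cortex 5, a high short-transcript library, stood above the other 5 floxed cortex libraries in the members' share (1.87%), Rplp0 (7320.2), Rps4x (6208.8) and Rpl10 (6679.0). The library labelled floxed cerebellum 6 had the highest Rps27l of its group, 543.0, and its Yy1 and microglia markers lay in the cKO range. Rps27 stood apart in floxed cortex 6 (423.0) and in cKO cerebellum 7 (6604.1, with Rps27rt at 0). The genotype effect on Rps4x was larger in cerebellum than in midbrain by 0.50 (log2, limma adjusted p = 0.0328), a difference tested as an interaction.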

How the results depend on the processing

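Counts of members called are given as higher and lower, in the order cortex, midbrain and cerebellum for cKO against floxed, where they moved by over 1.5 times. The share of all genes called moved between settings too. In cerebellum 19.4% of genes were called higher with the deposited scaling and 24.4% with library totals. The counts below are therefore given as a check of stability and not as a result about the members. Quantile normalisation gave 19, 4 and 19 higher, and library totals 4 higher in midbrain and 16 in cerebellum. Dropping the sex covariate gave 7 higher in cortex, and Xist in place of labelled sex 3, 2 and 13 higher. All 6 groups in 1 fit gave 3, 0 and 29 higher and 2 lower in cerebellum. Estimated reads as a covariate gave 0 higher in midbrain and 1 in cerebellum. Array weights gave 2 lower in cortex, 2 higher and 1 lower in midbrain, and 14 higher and 2 lower in cerebellum. Without replicates 5, 6 and 7 the counts were 5, 3 and 2 higher. The Wilcoxon test gave 0 higher in cortex and 1 lower in cerebellum. Chosen after seeing the data, the short-transcript covariate gave 3 higher in cortex and 10, 12 and 8 lower. Leaving out the high short-transcript libraries, also chosen then, gave 4, 1 and 4 lower and 3 higher in cerebellum, and 4 lower there without floxed cerebellum 6 too.

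For cerebellum minus cortex effects, the short-transcript covariate gave 22 higher and 2 lower. For cerebellum minus midbrain effects, counts higher were 3 with library totals, 7 with quantile normalisation and 21 (1 lower) with the short-transcript covariate; without the high short-transcript libraries they were 3 (1 lower), and 4 (1 lower) without floxed cerebellum 6 too. For floxed midbrain against cortex, counts higher and lower were 10 and 0 with library totals, 4 and 1 with median-of-ratios computed again, and 14 and 0 with quantile normalisation; 1 was lower with no sex covariate, 20 higher with the short-transcript covariate, 4 and 1 without the high short-transcript libraries, and 7 and 1 without floxed cerebellum 6 too. Floxed cerebellum against cortex gave 24 and 9 with library totals, 12 and 20 with median-of-ratios and 27 and 10 with quantile normalisation. Floxed cerebellum against midbrain gave 9 and 16, 26 lower, and 10 and 20 in the same order, and 2 higher without the high short-transcript libraries and floxed cerebellum 6. The cause of these moves was not tested.

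Same-numbered floxed and cKO libraries deviated together (correlation over 0.1) in 4 of 19 pairs, and same-numbered regions of a genotype in 32 of 36, but the labels do not say that a number marks an animal. Libraries whose transcripts went against the labelled sex also shared numbers across regions. The fits between regions took libraries as independent, except with a replicate block. A replicate block gave 4 higher in cortex, 2 higher in cerebellum, 1 lower for cerebellum minus cortex, 4 higher for cerebellum minus midbrain and 5 higher for floxed midbrain against cortex. Leaving out 1 library gave 5 to 17 higher in cortex (0 lower), 1 to 4 higher and 0 to 1 lower in midbrain, and 2 to 14 higher and 0 to 1 lower in cerebellum. For effects between regions it gave 0 to 1 lower (cerebellum minus cortex) and 0 to 3 higher (cerebellum minus midbrain). Between floxed regions it gave 2 to 4 higher and 1 to 3 lower (midbrain against cortex), 3 to 5 and 30 to 46 (cerebellum against cortex), and 2 to 4 and 36 to 51 (cerebellum against midbrain). In midbrain, where neither was called, Rps4x went from 0.11 to -0.01 with the short-transcript covariate, and Rps27 from 0.05 to -0.03 when summed with Rps27rt and to -0.09 without cKO midbrain 4. The Rps27l call was lost in cortex under the Wilcoxon test (adjusted p = 0.0632), in midbrain with estimated reads and in the fit of all 6 groups (highest 0.0951), and in 0 of 33 alternatives in cerebellum. In cerebellum Rpl7a lost its call in 16 of 33, Rpl29 in 13, Rplp0 in 11, Rpl10 in 8 and Rps4x in 1; Rps4x in cortex lost it in 14 of 29. The Yy1 call was lost in 5 of 29 in cortex (highest adjusted p 0.16), 4 of 32 in midbrain (0.199) and 0 of 33 in cerebellum.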

Other observations

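A pair of libraries, PX7 and QX7, carry a cortex code in the title and a midbrain tissue label, so they were put in no group. In PX7 the members made up 1.4583% of the library total, with Rps27l at 258.0, Rplp0 at 6308.0, Rps4x at 4962.4, Rps27 at 168.9 and Rps27rt at 2938.1. In QX7 they made up 1.6095%, with Rps27l at 336.5, Rplp0 at 7093.7, Rps4x at 5664.3, Rps27 at 603.6 and Rps27rt at 2421.2.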
